A study of Homo sapiens with 6 samples.

Results

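The genes described here are CALCR, which encodes the calcitonin receptor and carries the microRNA miR-489 within it, its paralog CALCRL, the receptor activity-modifying proteins RAMP1, RAMP2 and RAMP3, and MIR489, the gene of the miR-489 precursor. All probes that the platform annotation gives to these 6 genes were taken, which are 8 of the 47322 probes on the array. The genes are 6 of 20046 with a probe. T47D, a luminal breast cancer cell line, was grown with serum and given either a miR-489 mimic or a scramble control siRNA for 72 h. Each group held 3 samples, each on its own 1-colour Illumina BeadChip, and every sample came from the same transfected line. The mimic is supplied from outside, and the labels give neither its arm nor its sequence. They do not say whether replicates were separate cultures, so each p-value reflects only how these samples scatter, possibly for technical reasons.

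The calcitonin receptor and its paralog are class B G protein-coupled receptors for peptide hormones. RAMPs are single-pass membrane proteins that decide which peptide such a receptor binds: CALCR alone binds calcitonin, CALCR with a RAMP binds amylin, CALCRL with RAMP1 binds the calcitonin gene-related peptide, and CALCRL with RAMP2 or RAMP3 binds adrenomedullin. These receptors signal mainly through Gs, adenylyl cyclase, cAMP and protein kinase A. An intronic microRNA is cut from the transcript of its host gene, and a mature microRNA recognises messenger RNAs chiefly through its seed, bases 2 to 8.

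The miR-489 precursor is shown because the mimic stands for its product, and the miR-653 precursor because it lies in the same gene. In RefSeq's GRCh38.p14 tables, the MIR489 hairpin is at chr7:93483936-93484019 on the minus strand and the MIR653 hairpin at chr7:93482760-93482855 on the same strand, 1080 bases downstream. Both lie inside the span of CALCR, which is also read from the minus strand. The 2 CALCR start sites in those tables lie 75.8 and 90.7 kb upstream of the MIR489 hairpin. In the hairpins, capitals mark the mature miR-489-3p and miR-653-5p. In the mature sequences, capitals mark the seed.
MIR489 hairpin: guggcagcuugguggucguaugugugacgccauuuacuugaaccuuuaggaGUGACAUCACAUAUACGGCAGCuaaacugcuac
MIR653 hairpin: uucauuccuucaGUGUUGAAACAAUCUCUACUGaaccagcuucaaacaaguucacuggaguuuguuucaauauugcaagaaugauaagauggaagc
hsa-miR-489-3p: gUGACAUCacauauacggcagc
hsa-miR-653-5p: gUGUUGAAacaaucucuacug
hsa-miR-653-3p: uUCACUGGaguuuguuucaaua
The 3 seeds differ from each other. The seed of miR-489-3p was shared by 0 other mature names among the 2370 human ones in the table, and so were those of both miR-653 arms.

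The arrays had mean intensities of 526 to 619 and each had 16452 to 17346 probes with a detection p below 0.01, the threshold for "detected" used here. Detection p compares a probe with the array's negative control beads. Arrays of one group correlated at 0.982 to 0.993 and arrays of different groups at 0.945 to 0.958. All 10 luminal markers examined were detected on all 6 arrays, among them ESR1, GATA3 and KRT19. Their summed intensity was 62404 to 68630 with the scramble and 52274 to 60433 with the mimic, and members moved both ways. ESR1, FOXA1 and KRT19 fell (log2 fold changes of -1.16, -1.05 and -0.51), KRT8 and EPCAM rose (0.46 and 0.50), and 5 were not called. The called share was 50%, beside 35.7% of all measured genes. Of 10 endothelial markers 1 was detected on any array (ESAM, on 2 scramble arrays), and PECAM1, CDH5, KDR and VWF were detected on none. Of the other cell type markers with a probe, 2 of 9 fibroblast (COL1A1, THY1), 2 of 4 basal (ACTA2, MYLK) and 2 of 5 immune markers (CD14, CD68) were detected on at least 1 array. The basal sum, mostly from ACTA2, was 736 to 1964 with the scramble and 2973 to 7236 with the mimic, and the part of these marker shifts in the results was not tested. The endothelial, fibroblast and immune sums were 1143 to 1162, 1175 to 1278 and 1176 to 1298 with the scramble, and 1121 to 1255, 1207 to 1333 and 981 to 1109 with the mimic.

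CALCR was the only one of the 6 genes that was detected throughout. Its probe, annotated to NM_001742, had a detection p of 0 on all 6 arrays. The deposited intensity was 215, 233 and 286 on scramble arrays 1, 2 and 3, and 318, 372 and 323 on mimic arrays 1, 2 and 3. The group means were 245 ± 36.9 and 338 ± 29.8 (SD, n = 3 each), a ratio of 1.38, and each mimic array lay above each scramble array. After normalization 48.8% of tested probes had groups that did not overlap. An exact permutation test of these intensities gave p = 0.1 (two-sided), which is the smallest value that 3 against 3 allows.

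After background correction and normalization the mean difference was no smaller, but the groups overlapped. On the normalized log2 scale CALCR stood at 6.91, 7.17 and 7.63 on the scramble arrays and at 7.50, 8.07 and 7.82 on the mimic arrays. Mimic array 1, the array with the highest mean intensity, now lay below scramble array 3. The log2 fold change was 0.56 ± 0.22 (SE, n = 3 per group), a 1.48-fold higher mean with the mimic, with a 95% confidence interval from 0.06 to 1.07. CALCR was not called: the limma adjusted p was 0.0822, against a threshold of 0.05, and the unadjusted p was 0.0336. Over the whole array 33.9% of the 17104 probes that were tested were called (17.5% higher and 16.3% lower), and 29.7% changed by more than CALCR in size. With median scaling 62.5% of the calls were higher, against 51.8% in the main analysis. The exact permutation p on normalized values was 0.2.

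**Figure D1:**
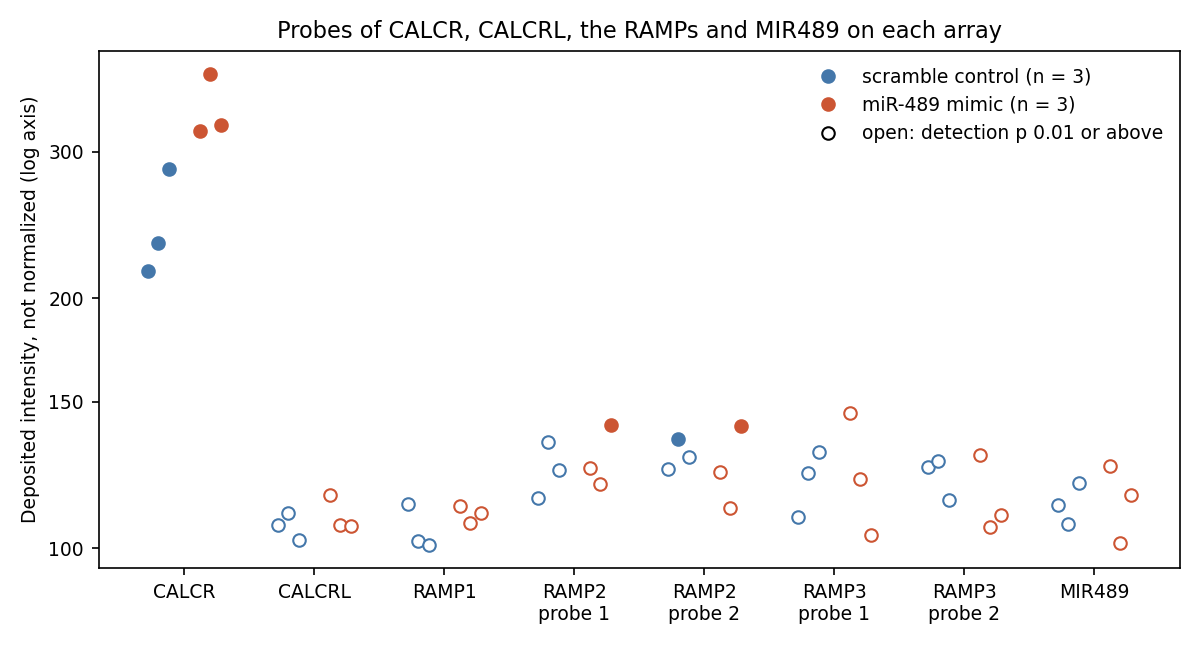
Deposited intensity (log axis) of each of the 8 probes on each array, scramble control in blue and miR-489 mimic in red, n = 3 each. Filled points were detected at p below 0.01. CALCR lies between 215 and 372, with the mimic arrays above the scramble arrays, and all other points lie between 101 and 145.

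The interval of the host gene holds values close to no change as well as a log2 change of 1. Of 19 other ways of processing or leaving out arrays, all gave a positive value, from 0.26 to 0.76, and 3 gave a call. Among these were the analysis without scramble array 3, which had the highest CALCR value of its group (0.76, adjusted p = 0.0358), and median scaling (0.66, adjusted p = 0.0411). Over the 19 the adjusted p ran from 0.0333 to 0.209. In the authors' processed values the groups also overlapped, and the log2 fold change was 0.26 (adjusted p = 0.0944).

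**Figure D2:**
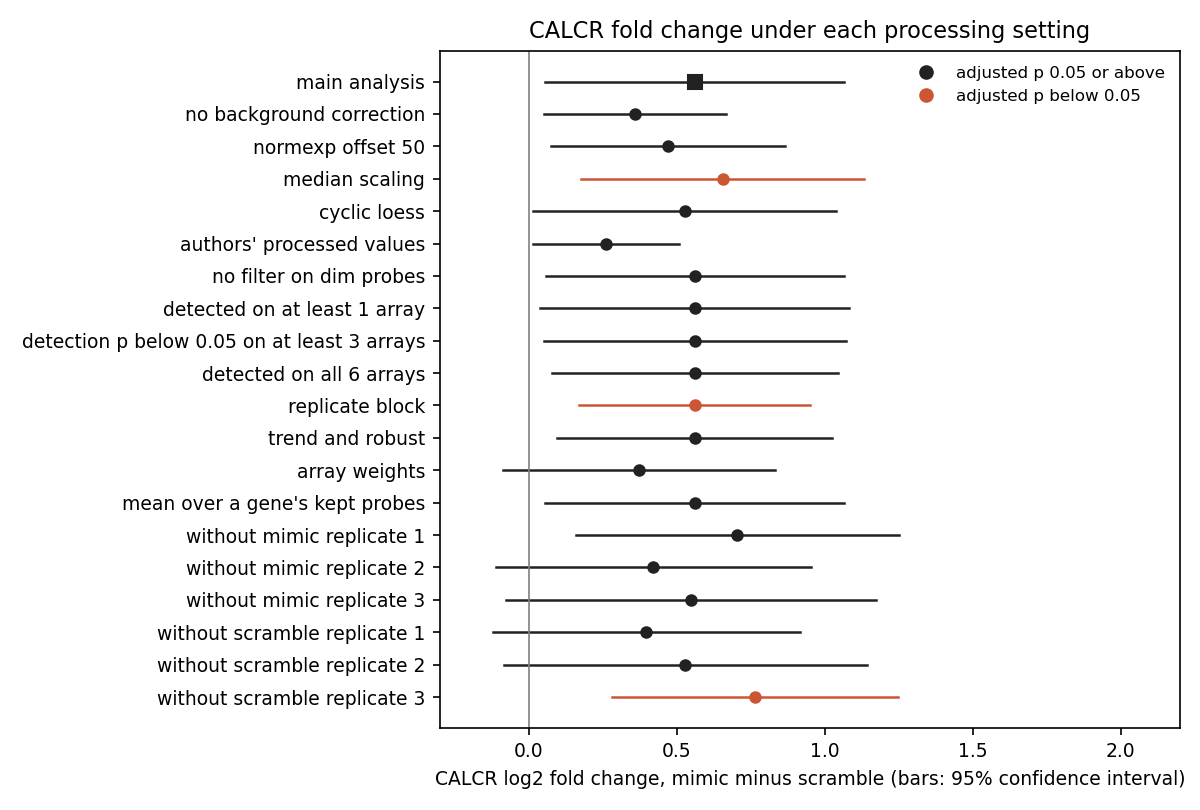
CALCR log2 fold change, mimic minus scramble, with its 95% confidence interval under the main analysis (square) and each alternative (circles). All values are above 0, and the 3 in red have an adjusted p below 0.05.

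The microRNA genes themselves gave no signal. The MIR489 probe read 113, 107 and 120 on the scramble arrays and 126, 101 and 116 on the mimic arrays, with detection p from 0.203 to 0.975. It was detected on 0 of 6 arrays, also at a threshold of 0.05, and the groups overlapped. This probe reads the precursor transcript in labelled cRNA and not the transfected mimic, so it is no check of the transfection. The MIR653 probe, looked at after the values of the other genes were seen, was detected on 0 of 6 arrays too, with intensities from 106 to 128.

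CALCRL, the other receptor, was at background. Its probe read 107, 110.2 and 102 with the scramble and 116, 107 and 106 with the mimic, with detection p of at least 0.594. RAMP1, the partner for amylin and calcitonin gene-related peptide binding, read 113, 102 and 101 with the scramble and 113, 107 and 110.4 with the mimic, with detection p of at least 0.574. For both genes the groups overlapped and no array detected the probe, so no fold is given.

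RAMP2, the adrenomedullin partner, was at the edge of detection, and in its case single arrays of each group stood out. Its first probe read 115, 134 and 124 with the scramble and 125, 119.6 and 141 with the mimic, and was detected on mimic array 3 alone. Its second probe read 125, 135 and 129 with the scramble and 124, 112 and 140.2 with the mimic, and was detected on scramble array 2 and mimic array 3. Within each group both probes were highest on the same array, scramble array 2 and mimic array 3. The groups overlapped for both probes. When looser filters let the second probe into the test, its log2 fold change was -0.26 ± 0.27 (limma adjusted p = 0.517 among probes detected on at least 1 array, 0.505 at a detection p below 0.05 on at least 3). The first probe also entered among probes detected on at least 1 array, at -0.01 ± 0.28 (limma adjusted p = 0.981).

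RAMP3, which pairs with CALCR or CALCRL, was detected on no array by either probe. Its first probe read 109, 123 and 131 with the scramble and 145, 121 and 104 with the mimic. Its second read 125, 127 and 114 with the scramble and 129, 106 and 109.6 with the mimic. At a detection p below 0.05 the first probe passed on 2 arrays (scramble 3 and mimic 1) and the second on 1 (scramble 2). In intensity both probes were highest on mimic array 1, while their highest scramble arrays differed (scramble 3 and scramble 2). Without any filter, no probe of CALCRL, the RAMPs or MIR489 was called, with limma adjusted p from 0.255 to 0.992.

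Over the 7 probes other than that of CALCR, 3 of 42 values were detected. The lowest intensity of any detected probe ran from 135 to 157 per array, and CALCR lay 1.55 to 2.08 times above that level on scramble arrays and 2.02 to 2.67 times above it on mimic arrays. Only CALCR of the 6 genes was thus measured, where 52.4% of all genes with a probe were, and a gene not detected here may still be transcribed at a level the array cannot show. In bulk RNA, fewer cells with a transcript and less of it per cell cannot be told apart.

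Most other peptide hormone receptors of the class were not detected either. Of 13, 10 were detected on no array by any probe, beside 41.2% of all genes with a probe, and 2 were measured. VIPR1, a receptor for vasoactive intestinal peptide, changed by -0.04 ± 0.23 on the log2 scale and CRHR1, a corticotropin-releasing hormone receptor, by -0.00 ± 0.17. Neither was called (limma adjusted p = 0.919 and 0.990), and their signs changed under some alternatives. Of the ligands, CALCA, CALCB and IAPP, which encode calcitonin with its gene-related peptides and amylin, were detected on no array. ADM, the adrenomedullin gene, was bright on every array, with intensities from 2815 to 3391 with the scramble and from 3391 to 3946 with the mimic. Mimic array 3 and scramble array 1 were nearly level. Its log2 fold change was 0.21 ± 0.13 (limma adjusted p = 0.253), so it was not called, and ADM2 has no probe in the annotation.

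Across all 8 lists of calcitonin-family and cAMP signalling, 34 of 82 genes were measured. With the mimic 6 rose and 5 fell, which makes 11 called. That share of 32.4% stands beside 35.7% of all 10503 measured genes (18.4% higher and 17.3% lower). The 6 include FOS, which passed the filter only through the mimic arrays, so its call is no support for a rise. GRK4 and SIK1, also among the 6, had fewer than 3 scramble detections and needed mimic arrays to pass. The lists' median log2 fold change was -0.02, beside 0.03 over all genes. Calls near the threshold and sizes near background depended on the processing. Without a filter on dim probes CRCP, GNAQ, CRTC3 and PDE4C were not called (limma adjusted p from 0.0505 to 0.0568), nor was PRKAR2A (0.102). In that fit 77 of the lists' genes were tested and 7 were called, 6 higher and 1 lower. In the authors' values the log2 fold changes of GNAQ, PRKAR1B and PDE7A, described next, were -0.28, 0.26 and 0.25, closer to 0 than in the main analysis. The lists' count was 5 without mimic array 1 or 3 and 7 without scramble array 2 or 3, and analyses of 5 arrays also made fewer calls over all probes (3791 to 5486, against 5797).

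Of 6 binding partners of RAMPs or of the ligands, 2 were measured and 1 was called, a share of 50% beside 35.7% of all measured genes. CRCP, a component of the calcitonin gene-related peptide receptor that is also a subunit of RNA polymerase III, fell by 0.54 on the log2 scale (SE 0.15, limma adjusted p = 0.0264). Of its 4 measured probes 3 fell, and the other changed by -0.38 and was not called. GPER1, a membrane oestrogen receptor reported to bind RAMP3 in mice, changed by -0.39 ± 0.22 and was not called. Without mimic array 1 or 3 or scramble array 2 or 3, CRCP was not called (adjusted p from 0.0636 to 0.0922).

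The G protein and cyclase list had 1 gene that fell and 6 that were not called of 7, a called share of 14.3% beside 35.7% of all measured genes. GNAQ, the alpha subunit that couples receptors to phospholipase C, fell 1.69-fold (log2 fold change -0.76 ± 0.20, limma adjusted p = 0.0238). GNAS, the stimulatory alpha subunit through which calcitonin receptors raise cAMP, changed by 0.12 ± 0.12 and was not called, nor were the cyclases ADCY1, ADCY3 and ADCY9. GNAQ was not called without mimic array 2 or scramble array 1 or 3 (adjusted p from 0.0522 to 0.0785).

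Protein kinase A and CREB genes moved both ways, with 2 that rose, 1 that fell and 6 not called of 9. The called share was 33.3%, beside 35.7% of all measured genes. PRKAR1B, a regulatory subunit of the kinase, rose 1.75-fold (log2 fold change 0.81 ± 0.16, limma adjusted p = 0.00708). PRKAR2A, another regulatory subunit, fell 1.58-fold (-0.66 ± 0.21, adjusted p = 0.0440). CRTC3, a coactivator of CREB, rose 1.43-fold (0.52 ± 0.15, adjusted p = 0.0283). PRKAR1B was called without any 1 array. PRKAR2A was not called without mimic array 1 or 3 or scramble array 1 or 2 (adjusted p from 0.0896 to 0.142), and lost its call in 5 of 13 alternatives that kept all arrays (adjusted p from 0.00802 to 0.102 over the 13). These were median scaling (0.0625), the authors' values (0.0651), no filter (0.102) and both looser filters (0.0596 and 0.0508). CRTC3 was called only without mimic array 2 among the analyses of 5 arrays (0.0548 to 0.101 in the others).

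Of 5 measured phosphodiesterases, which break down cAMP, PDE7A rose 1.50-fold (0.58 ± 0.15, limma adjusted p = 0.0213) and PDE4C fell 1.39-fold (-0.47 ± 0.14, adjusted p = 0.0319). These 2 make a called share of 40%, beside 35.7% of all measured genes. PDE7A was not called without mimic array 3 or scramble array 1 or 2 (adjusted p from 0.0532 to 0.0651), and PDE4C without mimic array 1 or 3 or scramble array 2 or 3 (0.0610 to 0.108). Of 5 receptor kinase and arrestin genes, GRK2, a kinase that marks active receptors for arrestin, fell 1.70-fold (-0.77 ± 0.12, adjusted p = 0.00257). GRK4, a kinase of the same family measured by 1 of its 4 probes, changed by 2.25 ± 0.23 and rose (adjusted p = 4.87e-04). It was detected on 3 mimic arrays and on 1 scramble array, so it passed the filter through the mimic arrays. Without a filter its limma adjusted p was 0.00146. Its size depended on the background step, since the log2 fold change was 0.93 when no background was removed and 0.57 by the authors' processing, with a call in both. Both GRK2 and GRK4 were called without any 1 array. In this list too the called share was 40%, beside 35.7% of all measured genes. ARRB1, an arrestin, was not called by its brightest probe (0.17 ± 0.23, limma adjusted p = 0.605). Of its 3 measured probes 1 was called higher (0.61, adjusted p = 0.00937), and another was at 0.48 and not called (0.0606).

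Of 10 cAMP-induced genes 3 were measured, and SIK1 and FOS were called higher, beside 18.4% of all measured genes. DUSP1, the other measured gene, changed by -0.36 ± 0.22 and was not called (limma adjusted p = 0.248). Among genes that were not measured, PER1 was detected on 2 scramble arrays and no mimic array. NR4A2 and FOSB were each detected on 2 mimic arrays and no scramble array. FOS, an immediate early transcription factor, was detected on no scramble array. In the main processing its mimic mean was 2.17-fold the lowest level that counted as detected on the scramble arrays. The filtered fit gave FOS a limma adjusted p of 0.00345. FOS passed the filter only through the 3 mimic arrays, so among filtered probes it had to be higher. It stays in the counts of called genes, but its call there is no support for a rise. In the fit of all 47322 probes without a filter its adjusted p was 0.0107. SIK1, a kinase that restrains CREB coactivators, rose 1.49-fold (0.57 ± 0.14, adjusted p = 0.0180). NR4A1, NR4A3 and PCK1 were detected on no array. In the authors' values the log2 fold change of FOS was 0.39 and without background correction 0.65. Both are under 2.17-fold, which is thus no lower limit and depends on the processing. SIK1 was not called by the authors' processing (0.11, adjusted p = 0.168), when no background was removed (0.19, adjusted p = 0.111), with a trended and robust fit (0.0549) or without mimic array 1 (0.0517). With any mimic array left out, FOS had too few detections to be tested.

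**Figure D3:**
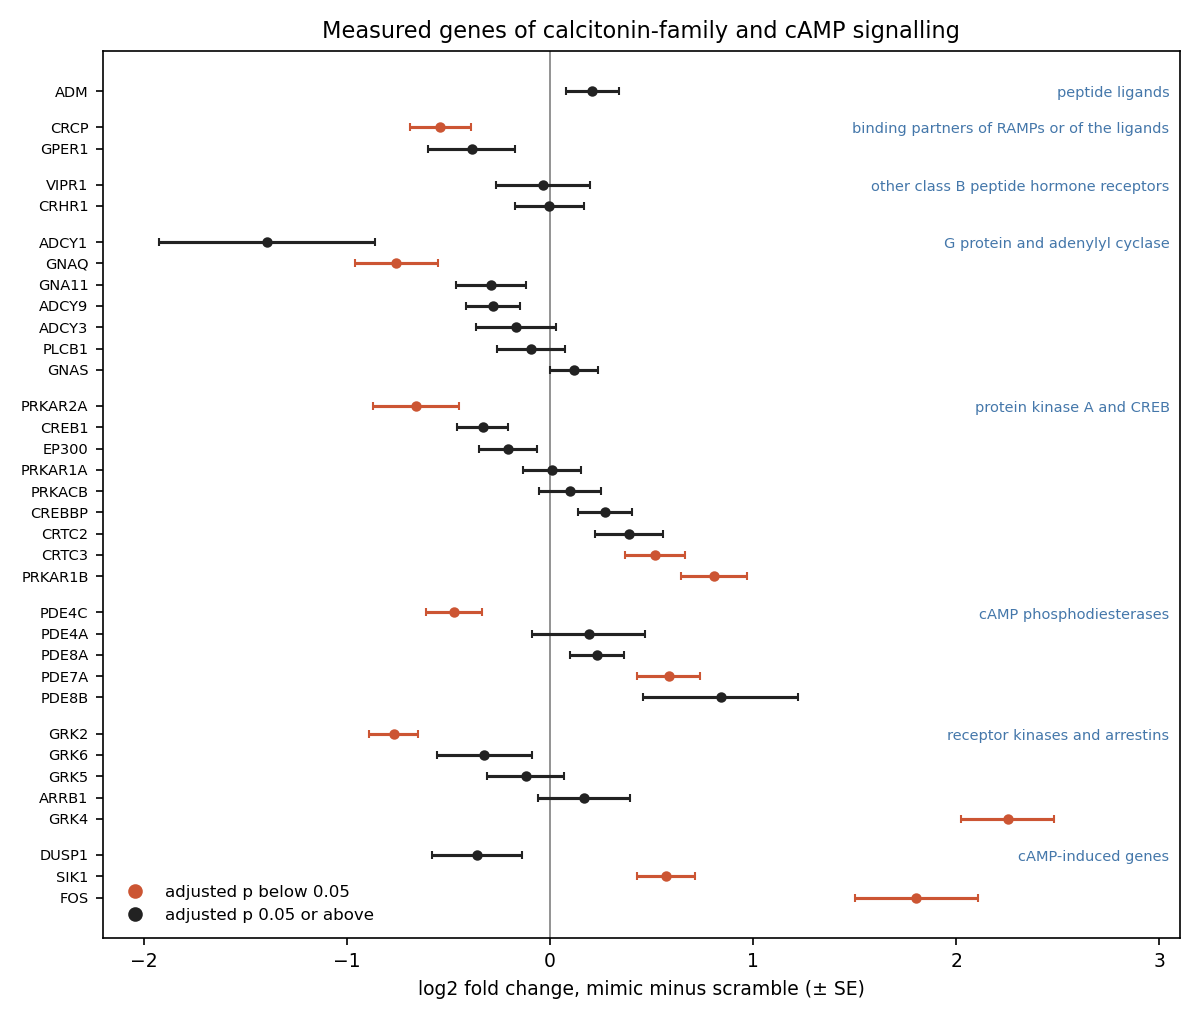
Log2 fold change, mimic minus scramble, with its SE (n = 3 per group) for the 34 measured genes of the calcitonin-family and cAMP lists, grouped by list. Red marks an adjusted p below 0.05, which 11 genes have, 6 to the right of 0 and 5 to the left. FOS, among the 6, passed the filter only through the mimic arrays.

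The measured genes beside CALCR on chromosome 7 lay on both sides of 0. Of the 6 protein-coding genes on each side, 8 were measured, 3 fell and 5 were not called, a share of 37.5% beside the 35.7% of all genes. CDK6, a cyclin-dependent kinase of the G1 phase, changed by -0.77 ± 0.21 and fell (limma adjusted p = 0.0230). It was detected on 1 mimic array and 3 scramble arrays, so it passed the filter through the scramble arrays. SAMD9, an interferon-inducible antiviral factor, fell 1.69-fold (-0.75 ± 0.18, adjusted p = 0.0148). VPS50, a subunit of an endosomal recycling complex and the closest neighbour on its side, fell 1.51-fold (-0.59 ± 0.15, adjusted p = 0.0198). FAM133B, on the same side, was at 0.04 ± 0.17 and not called. On the other side TFPI2 was detected on no array and GNGT1, a G protein gamma subunit, changed by 0.70 ± 0.26 and was not called (adjusted p = 0.0668), although its groups did not overlap. In 5 of 19 alternatives 1 neighbour was called higher. Without mimic array 1, and without scramble array 1, a single neighbour was called. CDK6 was not called without mimic array 1 or scramble array 1 or 2 (adjusted p from 0.0549 to 0.0697) nor without background correction (-0.25, adjusted p = 0.0600), without a filter (0.0555) or in the authors' values (-0.15, adjusted p = 0.101). The call was lost for SAMD9 without mimic array 1 or 3 (0.0559 and 0.0543), and for VPS50 without scramble array 1 or 3 (0.0527 and 0.0539) or with median scaling (0.0513).

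**Figure D4:**
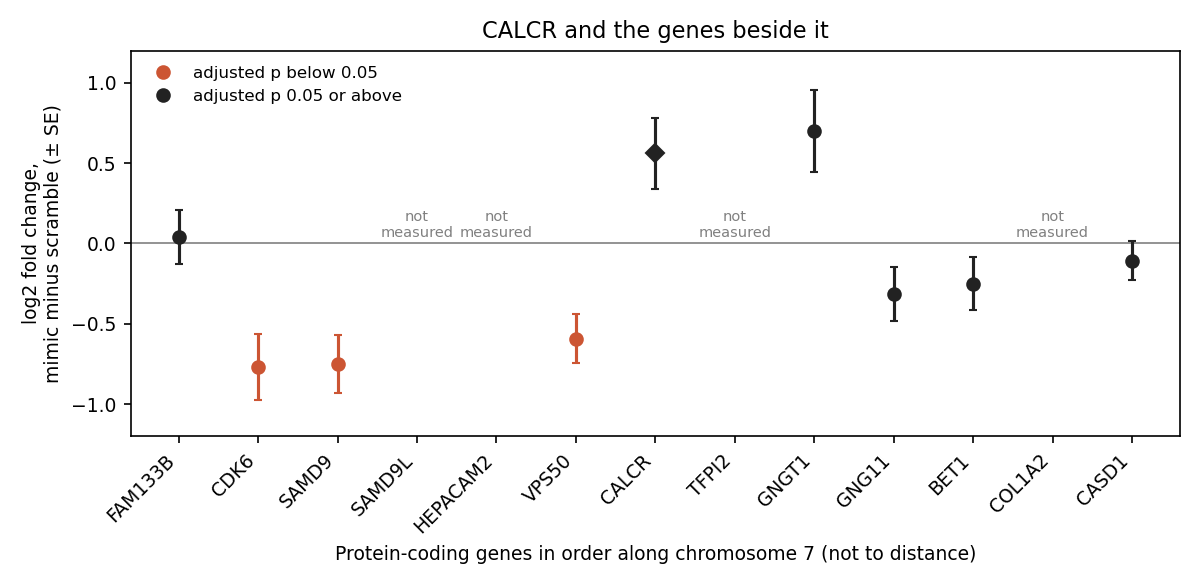
Log2 fold change with its SE (n = 3 per group) for CALCR (diamond) and the 6 protein-coding genes on each side, in chromosomal order and not to distance. CDK6, SAMD9 and VPS50, in red, have an adjusted p below 0.05 and lie below 0, while CALCR at 0.56 and GNGT1 at 0.70 lie above it without passing.

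The measured genes whose 6 array values most resembled those of CALCR were WDFY3, TLE2 and THYN1. Likeness was the root mean square difference over the 6 arrays between log2 values, each gene's taken relative to its own scramble mean. It was 0.05 for WDFY3, which encodes a scaffold of selective autophagy, 0.08 for TLE2, a Groucho-type corepressor, and 0.10 for THYN1. Their log2 fold changes were 0.58 ± 0.19, 0.56 ± 0.23 and 0.53 ± 0.18, and the limma adjusted p was 0.0460, 0.0919 and 0.0570. Genes chosen this way have log2 fold changes near that of CALCR by construction. WDFY3 lay near background, with intensities from 126 to 160 and detection on 2 mimic arrays and 1 scramble array. WDFY3 was called in 3 of 12 alternatives that kept all arrays (adjusted p from 0.0233 to 0.225), and of the 3 analyses of 5 arrays in which it could be tested it was not called without scramble array 1 or 2 (0.118 and 0.114). THYN1 was called in 8 of 13 alternatives that kept all arrays (0.0140 to 0.123). TLE2 was called in 1 of 13 such alternatives (0.0453 to 0.205), and without scramble array 3 (0.0273). With so few arrays and 10503 genes to choose from, such likeness is a description of these 6 arrays.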

How the data were processed

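The authors deposited a table that is not normalized, which per the file headers holds a linear intensity and a detection p-value for each probe on each array, and a table of processed intensity values of the same arrays. Per the submitters' processing notes, lumi 3.2.2 was used. No genome build is given in the sources used here. Over all its arrays together, the processed table has the median 200.783 and the minimum 170.293. These values are linear, and how they were transformed is unknown.

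Background was removed by normexp from the detection p-values with an offset of 16 (nec, limma 3.58.1, R 4.3.3). Then log2 was taken and arrays were quantile-normalized. Probes with a detection p below 0.01 on at least 3 of 6 arrays were kept (17104). Groups were compared with lmFit and eBayes, two-sided, with Benjamini-Hochberg adjustment over all kept probes. Probe names came from the 2016 platform annotation, updated by Entrez identifier to RefSeq symbols (GRCh38.p14, 30074 probes matched). A gene was represented by its brightest kept probe. The members, the lists and the processing were chosen with earlier results of these data known. Named genes are all members, up to 4 called genes per list with the largest change or, with none called, the 2 of smallest p, and the 3 genes most like CALCR (provisional names left out). GPER1, GNAS, the cyclases, ARRB1, DUSP1, PER1, NR4A2, FOSB, GNGT1 and FAM133B fall outside that rule and were chosen after their values were seen. The same holds for the luminal markers given with a change and for genes named as undetected. The fit was tested on simulated data. The labels name no slide or scan, so no batch could be tested. The number of arrays limits the precision.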

Additional observations from a re-analysis of the deposited data

How the results depend on the processing

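CALCR kept a positive sign in all 19 alternatives and was called in 3. These were median scaling (0.66), the replicate block (0.56 with a smaller error, limma adjusted p = 0.0333) and the analysis without scramble array 3 (0.76). Leaving out 1 array gave 0.40 to 0.76, with a call only without scramble array 3. Median scaling moved the median of all tested probes to 0.10, and CALCR lay 0.55 above that. It also made 62.5% of calls higher, against 51.8% (3676 higher and 2210 lower). Over the array 3791 to 5486 probes were called with 1 array left out. The pathway genes called numbered 7 without a filter on dim probes and 5 to 9 with 1 array left out, and the genes beside CALCR 1 to 3. Nothing in the labels says that equal replicate numbers share a culture or day, so they were not taken as pairs. The deviations of equal numbers from their group means correlated at r = 0.356, 0.45 and -0.107. With 3 arrays per group these values cannot settle whether the arrays were paired. The replicate block moved the number of called probes to 6684. The VIPR1 log2 fold change turned positive by median scaling (0.078) and ran from -0.245 to 0.0861 with 1 array left out. The CRHR1 log2 fold change turned positive by median scaling (0.0311) and with array weights (0.0581), and ran from -0.117 to 0.135 with 1 array left out. Over the 20 named genes other than members and their alternatives, 291 values kept sign and side of the threshold, 58 lost a call, 10 gained one and 9 changed sign, all of VIPR1 or CRHR1. The causes were not tested. Signals near background, which include CALCR at under 3 times the lowest detected intensity, have compressed or unstable folds. The authors' values are more compressed.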
